A study of Mus musculus with 7 samples.

Results

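Among the 18907 features listed in the 7 count tables, 8 genes encode homeobox transcription factors that are used as regional markers along the gut: Pitx1, Irx2, Irx3, Irx5, Meis2, Nkx6-2, Nkx6-3 and Pdx1. They were chosen by name, with their levels in these plates already known, and selected on the difference between plates labelled corpus and pylorus. That difference is therefore given below as a description. Each gene had 1 row, on chromosome 13 for Pitx1 and Irx2, 8 for Irx3, Irx5 and Nkx6-3, 2 for Meis2, 7 for Nkx6-2 and 5 for Pdx1. Pdx1 was listed in 3 tables and Irx2 in 6, and the other members were in all 7.

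The cells came from gastric epithelium of wild-type C57BL/6 mice, with no treatment. Glands were pressed out of the tissue after chelation, dissociated, and sorted as live single cells into plates of 384 wells (SORT-seq), and transcripts were counted by unique molecular identifiers (UMIs) with CEL-seq2, which reads the 3′ end of each transcript. There were 4 plates labelled corpus, the acid-secreting body of the stomach, and 3 labelled pylorus, its outlet. The labels give no animal, age or sex, so the plate was the unit of replication and the spread between plates may be technical. Wells with at least 1000 UMIs outside the spike-ins were kept, which left 1252 corpus and 983 pylorus cells of 2688 wells. The median kept cell had 6899 UMIs in corpus replicate 1 and 8240 in pylorus replicate 1, against 19648 to 25545 in the other 5 plates. Spike-ins took 4.27% and 6.55% of the UMIs in those 2 shallow plates and 0.256% to 0.426% elsewhere.

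Homeobox proteins bind DNA through a conserved homeodomain and set the identity of tissues along the body axes. The Iroquois genes (Irx) and Meis2 belong to the TALE class, whose homeodomain carries an extra loop, and Meis proteins act as partners of Hox and Pbx factors. Pdx1 is known for the pancreas, the duodenum and the distal stomach, and Nkx6-3 for the distal stomach, where both take part in making gastrin-producing cells. Pitx1 is known for the hindlimb and pituitary, and Nkx6-2 for the central nervous system.

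Not every plate followed its label. The library labelled corpus replicate 1 held 3340 UMIs of Gast, which encodes gastrin, the hormone of the distal stomach, or 1240 CPM (UMIs per 1000000 UMIs of the kept cells). All 6 other plates had 0, and the 3 pylorus plates were among them. A single cell held 2335 of the 3340 UMIs. Gast had a UMI in 49.6% of the kept cells of that plate, while it led the hormone genes in 5 of its endocrine-like cells. The parietal cell genes Atp4a and Atp4b and the chief cell genes Gif and Pgc were present in the pylorus plates, Atp4a at 289 ± 150 CPM (SD, n = 3) against 640 ± 276 CPM (SD, n = 4) in corpus. Atp4b was at 294, 19.0, 2913 and 1813 CPM over corpus replicates 1 to 4. Over pylorus replicates 1 to 3 it was at 73.4, 668 and 1039 CPM, so corpus replicate 2 lay below every pylorus plate for Atp4b. For Atp4a, corpus replicate 2 was at 489 CPM, above every pylorus plate (150, 269 and 448 CPM). Summed stromal markers (Col1a1 and 5 others) reached 36.8 CPM in corpus replicate 1 and at most 5.31 CPM elsewhere, and the squamous markers stayed at or below 0.371 CPM. The labels are used below as names, and values are given with and without corpus replicate 1.

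The promoters of members that were higher in the pylorus plates (Irx2, Irx3) and lower there (Meis2, Nkx6-2) are shown because each pair had like patterns over plates and classes (Pearson r 0.60 and 0.74 over 47 sums, described below). Each window holds 250 bases before to 50 bases after the RefSeq start in GRCm38.p6, 5′ to 3′ on the gene's strand, and was matched by symbol, which succeeded for 5 of 8 members. The tables themselves were made on another build (mm9). Capitals mark motif matches on either strand, which are the GC box in Irx2, the TATA motif in Meis2, and a GC box and a GATA motif in Nkx6-2. The windows lie at chr13:72628570-72628869 (plus strand) for Irx2, chr8:91801605-91801904 (minus) for Irx3, chr2:116064570-116064869 (minus) for Meis2 and chr7:139582748-139583047 (minus) for Nkx6-2.
Irx2: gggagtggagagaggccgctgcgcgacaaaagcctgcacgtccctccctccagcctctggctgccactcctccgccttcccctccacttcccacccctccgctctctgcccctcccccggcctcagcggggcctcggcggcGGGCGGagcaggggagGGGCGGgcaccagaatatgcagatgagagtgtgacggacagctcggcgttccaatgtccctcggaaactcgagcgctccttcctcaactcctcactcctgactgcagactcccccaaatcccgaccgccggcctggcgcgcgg
Irx3: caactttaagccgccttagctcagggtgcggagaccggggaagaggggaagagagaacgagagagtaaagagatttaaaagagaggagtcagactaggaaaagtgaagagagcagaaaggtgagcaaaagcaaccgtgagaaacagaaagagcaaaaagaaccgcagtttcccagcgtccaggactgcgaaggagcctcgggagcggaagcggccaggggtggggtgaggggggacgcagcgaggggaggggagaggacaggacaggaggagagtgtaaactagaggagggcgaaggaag
Meis2: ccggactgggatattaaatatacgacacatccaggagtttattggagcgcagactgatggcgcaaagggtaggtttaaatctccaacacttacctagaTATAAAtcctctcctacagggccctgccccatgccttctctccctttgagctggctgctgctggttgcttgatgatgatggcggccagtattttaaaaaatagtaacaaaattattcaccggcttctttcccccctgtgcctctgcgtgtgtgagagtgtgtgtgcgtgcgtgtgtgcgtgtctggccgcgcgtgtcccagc
Nkx6-2: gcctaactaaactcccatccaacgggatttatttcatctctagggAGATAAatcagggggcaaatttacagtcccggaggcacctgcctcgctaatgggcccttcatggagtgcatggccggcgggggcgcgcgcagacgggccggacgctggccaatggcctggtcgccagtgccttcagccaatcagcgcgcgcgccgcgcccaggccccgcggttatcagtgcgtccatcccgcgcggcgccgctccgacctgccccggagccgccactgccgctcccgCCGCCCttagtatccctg
In all, 6 motifs were searched, each on both strands. The Irx2 window held 2 GC boxes (GGGCGG), a motif found in 35.7% of 32851 windows of this length. The Irx3 window held no match to any of them. Meis2 held 1 TATA motif (TATAAA, 13.6% of windows), and Nkx6-2 held 1 GC box and 1 GATA motif (AGATAA, 11.2%). The TALE core TGACAG (19.2% of windows) was present once in the Pdx1 window and absent from these 4, as were the homeodomain core TAATTA (5.29%) and the Iroquois motif ACANNTGT (7.38%). GC content was 69% in Irx2, 56% in Irx3, 51% in Meis2 and 66.7% in Nkx6-2, and the median window had 52.7%.

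The 3 Iroquois genes were higher in the pylorus plates than in corpus replicates 2 to 4 on average. In corpus replicate 1, Irx2 and Irx5 had 0 UMIs and Irx3 had 2. Irx5 read 0, 10.02, 10.7 and 8.60 CPM over corpus replicates 1 to 4, and 18.4, 49.8 and 39.3 CPM over pylorus replicates 1 to 3. Every pylorus plate was above every corpus plate. The 0 in corpus replicate 1 allows up to 1.11 CPM (3 counts of its total, counting error only).

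Irx3 followed the same order at lower levels, with 0.743, 2.21, 2.53 and 1.70 CPM in corpus and 6.88, 8.84 and 9.18 CPM in pylorus. The groups did not overlap. The Poisson interval of corpus replicate 1, 0.0899 to 2.68 CPM on 2 UMIs, covered the values of the other corpus plates. The antisense gene Irx3os overlaps Irx3 in the annotation, and since the use of strand in counting was not given, reads of the pair cannot be told apart. Irx2 was less clear, at 0, 13.6, 6.53 and 4.41 CPM in corpus and 19.1, 13.8 and 11.5 CPM in pylorus. Corpus replicate 2 lay inside the pylorus range, so the groups overlapped. Irx1 and Irx4, which lie near Irx2 in the genome, reached at most 0.170 CPM in any plate.

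Pitx1 was high in the pylorus plates and in corpus replicate 1. It stood at 42.7, 3.40, 5.58 and 4.41 CPM in corpus and at 22.9, 59.5 and 50.6 CPM in pylorus. Corpus replicates 2 to 4 averaged 4.46 ± 1.09 CPM (SD, n = 3) and pylorus 44.3 ± 19.1 CPM (SD, n = 3), a ratio of 9.93. Corpus replicate 1 lay inside the pylorus range and its Poisson interval, 35.3 to 51.3 CPM, was clear of the other corpus plates. The share of cells with a Pitx1 UMI was 22.3% there, 4.30% to 8.86% in the other corpus plates and 12.4% to 50.5% in pylorus. After each cell was thinned to 1000 UMIs the shares were 2.88%, 0% to 0.717% and 1.60% to 6.32%.

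Meis2 ran the other way, with 60.5, 33.5, 26.2 and 23.1 CPM in corpus and 8.79, 7.03 and 6.64 CPM in pylorus. All 4 corpus plates were above all 3 pylorus plates, and corpus replicate 1 was the highest. The 3 pylorus plates agreed closely, at 7.49 ± 1.15 CPM (SD, n = 3).

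Nkx6-2 was also higher in corpus, at 52.0, 84.6, 19.5 and 20.9 CPM against 8.79, 13.1 and 13.1 CPM. The groups did not overlap, but the corpus plates differed about as much among themselves. Endocrine-like cells made up 30.5% of the kept cells of corpus replicate 2, the highest plate, against 7.60% to 13.2% in the other plates, and held 439 of its 498 Nkx6-2 UMIs. A plate sum cannot tell more such cells from more RNA per cell, which the class values below separate.

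Nkx6-3 was mostly a gene of corpus replicate 1, with 191 UMIs (70.9 CPM) there. The other corpus plates had 3, 58 and 83 UMIs (0.510, 6.11 and 9.39 CPM), and the pylorus plates 1, 1 and 2. It was found in 28.4% of the cells of corpus replicate 1, in 1.075% to 8.38% of the other corpus cells and in at most 0.542% of pylorus cells. In corpus replicate 3, 1 cell held 25 of the 58 UMIs.

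Pdx1 was scarce, with 10 UMIs in 8 cells in all. Of these, 6 UMIs in 5 cells came from corpus replicate 1, 3 from replicate 3 and 1 from replicate 4. The pylorus plates had none, which allows up to 1.15, 0.363 and 0.332 CPM. The plate with Gast was also the plate with the most Nkx6-3, Pdx1 and Meis2, and it had no UMI of Irx2 or Irx5.

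**Figure D1:**
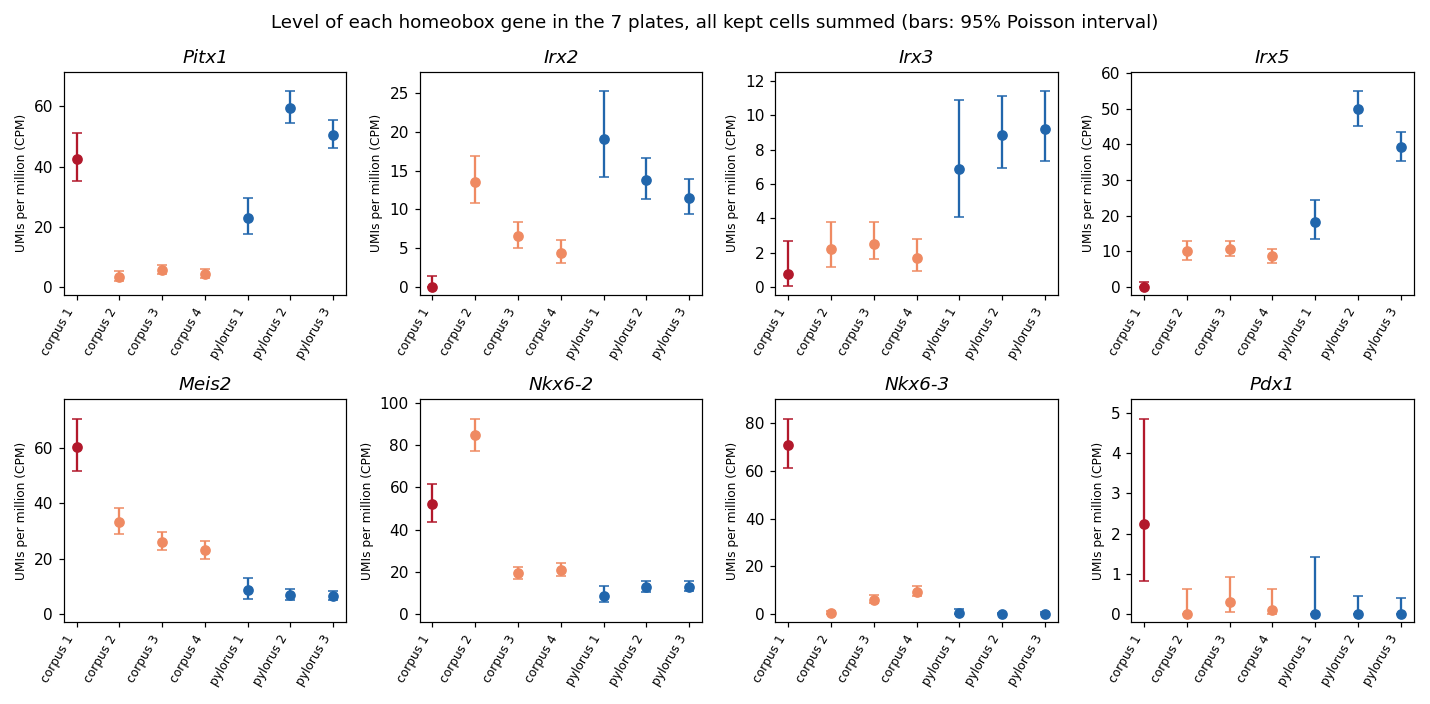
CPM of each member (y axis) in the 7 plates (x axis), with 95% Poisson intervals as bars, corpus replicate 1 in dark red, other corpus plates in orange and pylorus plates in blue. Pitx1 at 42.7 CPM in corpus replicate 1 sits among the pylorus plates, and Irx2 and Irx5 are at 0 there.

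Over all 7 plates, limma on summed counts gave a pylorus minus corpus difference (log2 of scaled CPM + 2, ± SE) of 2.21 ± 0.67 for Irx5, 1.47 ± 0.26 for Irx3 and 1.36 ± 0.59 for Irx2. It was 2.11 ± 0.66 for Pitx1, -1.86 ± 0.25 for Meis2, -1.48 ± 0.41 for Nkx6-2 and -2.34 ± 0.88 for Nkx6-3. Pdx1 was below the count filter. With the Benjamini-Hochberg adjustment over all features at 0.05, 0 of the 7 tested members passed, as did 0.0167% of all 12003 features (Bpifb1 and Lrp2, both higher in pylorus). At an unadjusted p under 0.05 there were 6 of 7 members and 146 features, and limma with voom weights called 0 features.

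Leaving out corpus replicate 1 moved Pitx1 to 2.73 ± 0.37, Irx5 to 1.56 ± 0.35 and Irx2 to 0.79 ± 0.31, and Nkx6-3 then fell under the filter. When cells were clustered without the members, corpus replicates 3 and 4 and pylorus replicates 2 and 3 shared clusters, except in chief-like cells. Among these 4 plates, corpus against pylorus, all 7 tested members passed, where 3.53% of 11978 features did. The differences there were 2.93 ± 0.16 for Pitx1, 1.89 ± 0.17 for Irx5, 1.35 ± 0.19 for Irx3 and 0.89 ± 0.20 for Irx2. They were -1.69 ± 0.16 for Meis2, -0.66 ± 0.14 for Nkx6-2 and -2.20 ± 0.21 for Nkx6-3. These members and plates were chosen with this contrast known, so the count is a description.

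The plates were also compared by whether the labels overlapped. Over 7 plates, Irx3 and Irx5 were higher in every pylorus plate, as were 1.02% of the 12003 features. Meis2, Nkx6-2 and Nkx6-3 were lower in every one, as were 1.64%. For Nkx6-3 this rested on 3 UMIs in corpus replicate 2 (0.510 CPM) and 1 UMI in pylorus replicate 1 (0.382 CPM). Their Poisson intervals overlapped, at 0.105 to 1.49 and 0.00968 to 2.13 CPM. Without corpus replicate 1, Pitx1 joined the higher group, where the shares of features were 7.53% higher and 4.6% lower.

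**Figure D2:**
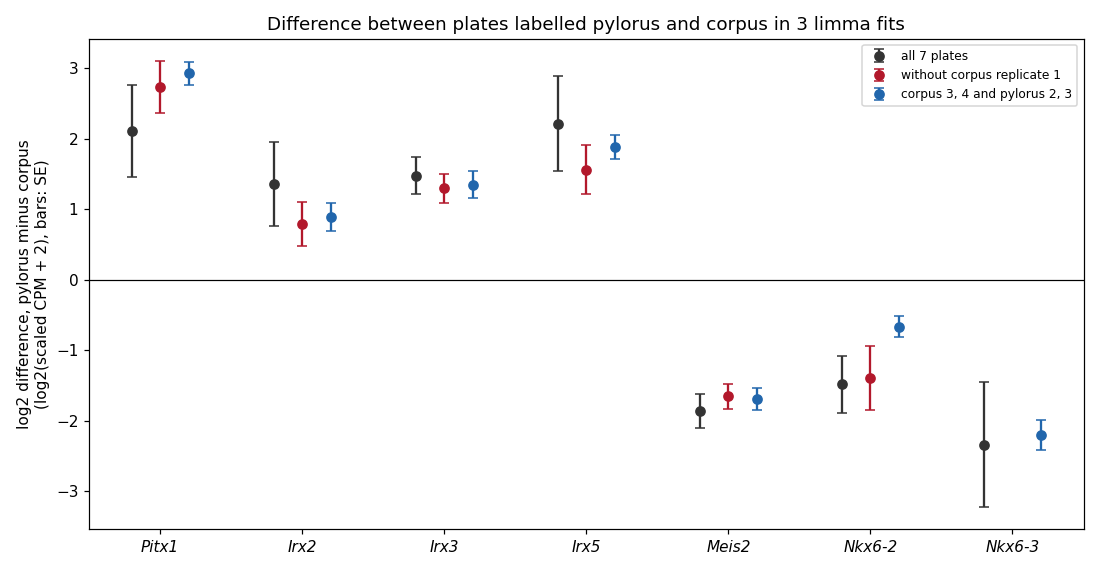
Pylorus minus corpus difference (y axis, log2 of scaled CPM + 2, bars SE) for the 7 tested members (x axis) in 3 limma fits. Pitx1, Irx2, Irx3 and Irx5 lie above 0 in each, Meis2 and Nkx6-2 below 0 in each, and Nkx6-3 below 0 in the 2 fits that tested it.

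Cells were clustered without the 8 members, and clusters were named from marker genes. The plates did not mix evenly. Corpus replicate 1, corpus replicate 2 and pylorus replicate 1 lay mostly in other neck-like, pit-like and chief-like clusters than the 4 deeper plates, and 1 endocrine-like cluster had 72 of its 77 cells from corpus replicate 2. A neck-like cluster had 30 of its 36 cells from corpus replicate 1 and none from the other corpus plates. The proliferating-like and tuft-like clusters held cells of all 7 plates. Chief-like cells of corpus replicates 3 and 4 and of pylorus replicates 2 and 3 lay in separate clusters. With the members included, pit-like cells of these plates also split by label. A pit-like cluster then held 79 and 77 cells of corpus replicates 3 and 4 and 3 and 4 cells of pylorus replicates 2 and 3. Another held 4 and 3 against 77 and 69. Immune-like cells, taken as a background class for these epithelial genes, held no UMI of any member in 53 corpus cells and 0 to 2 UMIs of each in 71 pylorus cells. The 5 immune-like cells of corpus replicate 1 held none either. At the depth of these cells a count of 0 allows 15.6 to 25.6 CPM in a plate with at least 10 of them, which is above many of the member levels below.

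Nkx6-2 was by far highest in the endocrine-like cells, which make gut hormones and amines, in every plate, among classes with at least 10 cells. There it stood at 228, 306, 175 and 179 CPM in corpus and at 177, 145 and 149 CPM in pylorus, and 26.1% to 88.2% of these cells held a UMI. The plates overlapped. In neck-like cells, which secrete mucus in the gland, it was 85.3, 24.1, 18.6 and 23.5 CPM in corpus but 1.76, 6.72 and 1.24 CPM in pylorus, without overlap. These pylorus values rested on 1, 7 and 1 UMIs, the first and last under the plate's level of 3 counts.

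In pit-like cells, the surface mucous cells, Nkx6-2 was 36.3, 12.3, 13.4 and 12.9 CPM in corpus. It was 0.910, 1.82 and 4.65 CPM in pylorus, the first on 1 UMI. Chief-like cells had 2.70 to 8.08 CPM in all 6 plates with enough cells. Of the Nkx6-2 UMIs, 74.7% were in endocrine-like cells in pylorus, 10.9% of the cells, and 67.2% in corpus replicates 2 to 4, 15.6% of the cells. The pooled corpus share rested on corpus replicate 2, with 439 of 498 Nkx6-2 UMIs, while corpus replicates 3 and 4 had 68 of 185 and 76 of 185.

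The limma difference for Nkx6-2 was -0.51 ± 0.24 in endocrine-like cells, -2.81 ± 0.49 in neck-like cells and -2.11 ± 0.40 in pit-like cells. The log2 gap between endocrine-like and neck-like cells was 2.72 ± 0.93 (SD, n = 4) in corpus and 5.06 ± 0.85 (SD, n = 3) in pylorus. An exact two-sided permutation test over the 35 divisions of the plates gave p = 0.0286 for this difference of 2.34, the smallest p it allows. The Benjamini-Hochberg adjusted exact p over 21 such tests was 0.6, and none of the 21 passed. With 21 tests, a single one at that smallest p could not have passed. The pylorus gap also rested on 1, 7 and 1 Nkx6-2 UMIs in neck-like cells.

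Endocrine-like cells were further split by which of Ghrl (ghrelin), Hdc (the enzyme that makes histamine), Sst (somatostatin) and Gast had the most UMIs in a cell. Nkx6-2 was present in both main types. In cells led by Ghrl it ran from 80.1 to 291 CPM over 6 plates, and in cells led by Hdc from 182 to 680 CPM over 7. In the 5 cells led by Sst in corpus replicate 4 it was at 0, which allows up to 63.4 CPM.

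In corpus replicate 1, the 7 cells led by Sst and the 5 led by Gast held no Nkx6-2 UMI, but their few UMIs allow up to 174 and 178 CPM. These same cells held 11 and 6 UMIs of Meis2, or 638 and 356 CPM. Meis2 in all 23 endocrine-like cells of that plate came to 385 CPM, against 33.0 to 64.8 CPM in the other corpus plates and 14.9 to 29.5 CPM in pylorus.

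**Figure D3:**
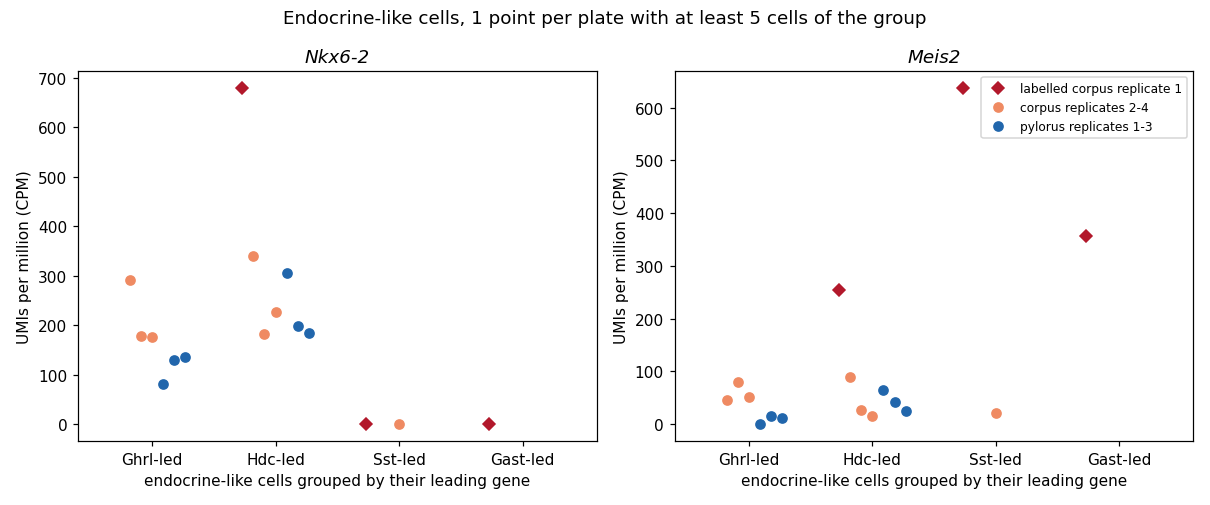
CPM of Nkx6-2 (left) and Meis2 (right) in endocrine-like cells (y axis) by their leading gene (x axis), 1 point per plate with at least 5 such cells. Nkx6-2 spans 80.1 to 680 CPM in cells led by Ghrl or Hdc and is at 0 in those led by Sst or Gast, where there were 5 to 7 cells a plate.

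Meis2 was lower in the pylorus plates in neck-like, pit-like and parietal-like cells. In neck-like cells it was 73.1, 36.8, 37.2 and 26.4 CPM in corpus and 8.81, 10.6 and 4.96 CPM in pylorus. In pit-like cells it was 39.3, 30.1, 22.5 and 29.0 CPM against 7.28, 5.81 and 7.50 CPM. Neither class overlapped between labels. In parietal-like cells, the acid-secreting cells, only the deeper plates had enough cells, with 27.2 and 26.3 CPM under the corpus label and 8.32 and 13.2 CPM under pylorus.

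Chief-like cells, which secrete digestive enzymes, had less Meis2, at 3.46 to 12.02 CPM in corpus and 2.16 to 7.83 CPM in pylorus, with overlap. Proliferating-like cells overlapped too, at 6.80 to 63.3 CPM in corpus and 3.51 to 8.97 CPM in pylorus.

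Irx5 was present in all epithelial classes of the pylorus plates. In neck-like cells it was 0, 11.4, 13.8 and 14.96 CPM in corpus and 24.7, 88.3 and 59.5 CPM in pylorus. In endocrine-like cells it was 0, 11.1, 25.7 and 18.8 CPM against 68.9, 63.4 and 56.2 CPM, and in parietal-like cells 2.68 and 2.84 CPM against 31.2 and 27.5 CPM. None of these overlapped. In chief-like cells pylorus replicate 1, at 14.1 CPM, lay inside the corpus range of 10.4 to 15.4 CPM. In proliferating-like cells it was at 7.28 CPM on 1 UMI, inside the corpus range of 0 to 11.9 CPM.

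Irx2 had a different pattern over classes, with its highest levels in endocrine-like cells. These held 36.9, 53.9 and 44.8 CPM in corpus replicates 2 to 4 and 108, 59.6 and 47.9 CPM in pylorus, with overlap. Corpus replicate 1 had 0, which at 57084 UMIs in those cells allows up to 52.6 CPM and so is not distinguishable from the other corpus plates. The same limit applies to the 0 of Irx5 there. Neck-like cells had 0 to 7.61 CPM in corpus and 15.4 to 17.6 CPM in pylorus. Irx3 in neck-like cells was at 10.6, 18.2 and 23.6 CPM in pylorus, against 1.74 to 4.28 CPM in corpus. Endocrine-like cells of pylorus had 19.7, 14.9 and 9.91 CPM, the first on 2 UMIs, so no class stood above the other in every plate. Most Irx3 values rested on under 20 UMIs a plate and class.

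Pitx1 was found across several classes of the pylorus plates, among them pit-like, neck-like and dividing cells. Endocrine-like cells had 29.5, 54.0 and 19.8 CPM in pylorus replicates 1 to 3, the first on 3 UMIs. A cluster of 138 cells that could not be named had 78.2 and 76.8 CPM in pylorus replicates 2 and 3. Pit-like cells had 39.3, 8.20, 6.68 and 4.10 CPM in corpus and 31.9, 71.2 and 65.0 CPM in pylorus. Proliferating-like cells had 68.9 CPM in corpus replicate 1, 14.3 and 8.50 CPM in replicates 3 and 4, and 43.7, 91.3 and 61.3 CPM in pylorus. In both classes corpus replicate 1 lay with the pylorus plates.

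For Pitx1, chief-like cells had 1.05, 0.856 and 1.15 CPM (4 UMIs in 139 cells, each plate under its level of 3 counts) in corpus replicates 2 to 4 and 12.5, 32.4 and 34.0 CPM (123 UMIs in 166 cells) in pylorus. The endocrine-like cells of corpus replicate 1 held no Pitx1 UMI, which allows up to 52.6 CPM. A difference from the neck-like and pit-like cells of that plate was not detectable at this depth. All 115 UMIs of that plate were in pit-like, neck-like and proliferating-like cells. Nkx6-3 in that plate was spread over neck-like (57 UMIs), pit-like (64), proliferating-like (56) and endocrine-like cells (13). Of the 6 Pdx1 UMIs there, 5 were in pit-like and 1 in proliferating-like cells.

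**Figure D4:**
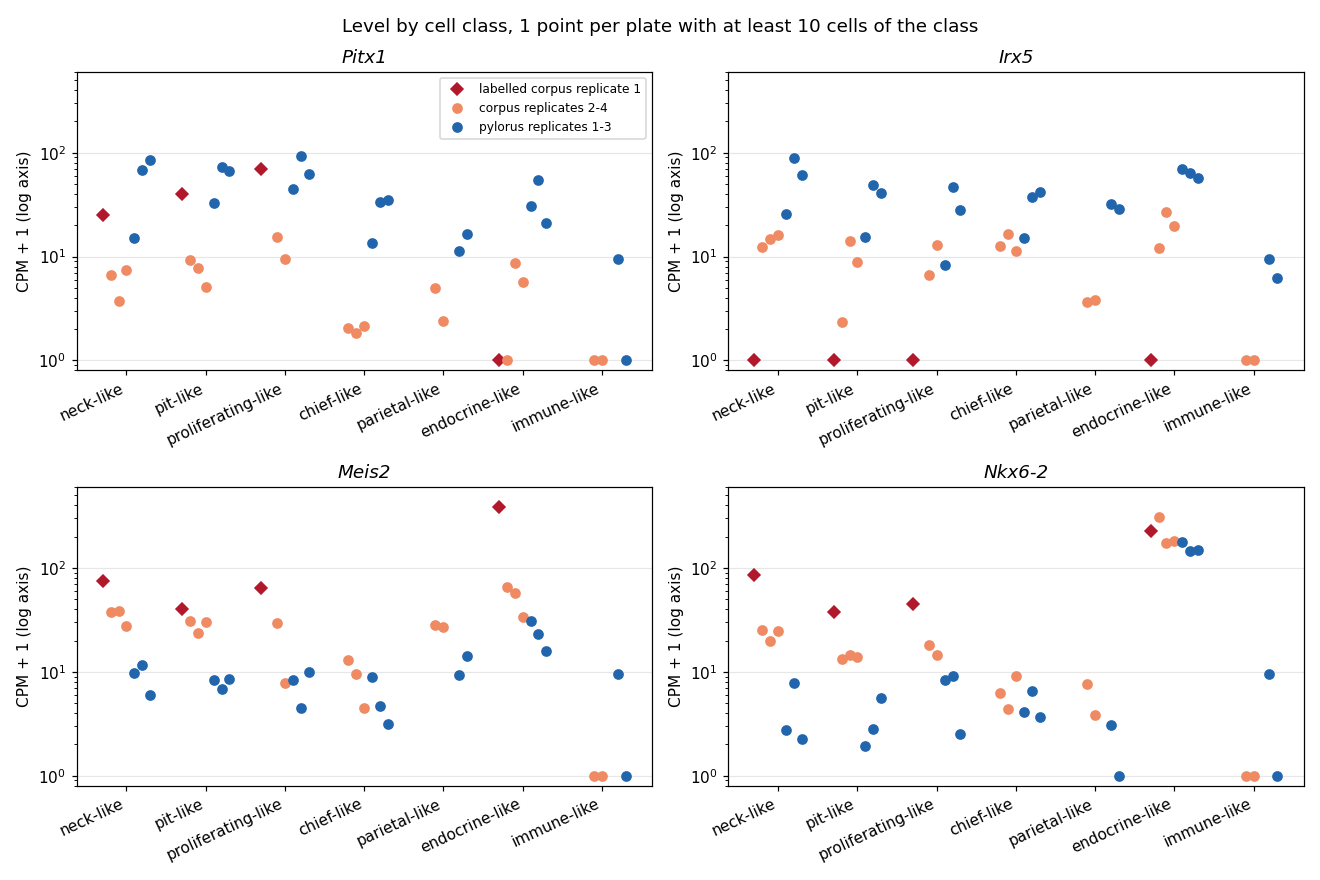
CPM + 1 (y axis, log scale) of Pitx1, Irx5, Meis2 and Nkx6-2 by cell class (x axis), 1 point per plate with at least 10 cells of the class. Nkx6-2 is highest in endocrine-like cells, at 145 to 306 CPM in all 7 plates, and Irx5 is at 0 in each class shown for corpus replicate 1.

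Within classes, limma tested 6 members in neck-like and pit-like cells, 4 in chief-like and endocrine-like cells, 1 in proliferating-like and 3 in parietal-like cells. None passed in neck-like cells (0.0371% of 8082 features did), nor in pit-like (0% of 9434), chief-like (0% of 7083), endocrine-like (0% of 6258) or proliferating-like cells (0% of 6447). At an unadjusted p under 0.05, limma had 234, 210, 170, 109 and 129 features in these 5 classes, and with voom weights 2, 1, 0, 0 and 0 passed. In parietal-like cells, where only the 4 deeper plates had enough cells, Irx5 (2.44 ± 0.42) and Meis2 (-1.52 ± 0.34) passed and Pitx1 (1.45 ± 0.52) did not, beside 7.91% of 7015 features. The Meis2 call there was lost without corpus replicate 3 or 4, at adjusted p = 0.231 by limma in either case.

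When the fit within classes was limited to the 4 plates whose cells shared clusters made without the members, more members passed by limma. Irx3, Irx5, Meis2, Nkx6-2 and Pitx1 passed in neck-like cells, beside 0.732% of 8196 features, and in pit-like cells, beside 1.88% of 9237. Irx5 and Pitx1 passed in chief-like cells (0.672% of 7140 features) and Pitx1 in proliferating-like cells (0.141% of 6390). The chief-like cells of these corpus and pylorus plates lay in separate clusters. In endocrine-like cells 0 of 4 tested members passed, as did 0.296% of 6416 features. The members and these plates were chosen with the contrast known, so these calls too are a description.

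Members were also found in the same cells. Irx5 was seen in 62.9% of the 175 cells with an Irx3 UMI and in 22.0% of the rest, and in 63.2% against 53.4% within pylorus replicate 2 and 70.8% against 44.4% within pylorus replicate 3. Cells with Irx3 were deeper, with a median of 26616 UMIs against 18729. Nkx6-3 was seen in 49.4% of the cells of corpus replicate 1 with Nkx6-2 and in 18.8% of the others, whose median UMI counts were 12646 and 5646. The part of depth in these shares was not tested.

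The patterns of the members were compared across 47 plate-by-class sums. By Pearson r of log2(CPM + 2), Irx5 was nearest to Irx2 (0.76) and Irx3 (0.76), then Bpifb1 (0.69), and Irx3 to Irx5, Bpifb1 (0.68) and Il15ra (0.62). Irx2 was nearest to Myh10 (0.78), Irx5 and 4933436C20Rik (0.76). Meis2 was nearest to Nkx6-2 (0.74), Nkx6-3 (0.71) and Ppip5k1 (0.71). Members did not split cleanly by direction, with r 0.29 for Irx2 and Nkx6-2. These sums share plates and depths, and the members were selected on the difference between the labels, so r describes them only.

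For Nkx6-2 the nearest genes were Capsl (0.85), Pcsk2 (0.83), a prohormone convertase, and Ache (0.82), acetylcholinesterase. For Pitx1 they were Wfdc2 (0.70), Mrpl50 (0.68) and Kdelc2 (0.66). Nkx6-3 was nearest to Col1a1 (0.74), a collagen gene of stromal cells, Meis2 (0.71) and 2210019I11Rik (0.70), and Col1a1 belongs to the marker sum that was highest in corpus replicate 1. The part of stromal RNA in the Nkx6-3 level was not tested. The 10 UMIs of Pdx1 were nearest to S100g (0.75), Slurp1 (0.74) and Prss32 (0.64).

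Other factors of the same families and of the stomach were read from lists, where a count of 0 is to be set beside the 0.0167% of all features that passed. Of 17 Iroquois, Nkx6, Pitx, Pdx and TALE relatives, 15 were in the tables, 8 were tested and 0 passed by limma (0 at an unadjusted p under 0.05), with a median difference of -0.03 against 0.00 over all features. Abundant ones included Pbx2 (-0.01 ± 0.25), Pbx3 (-0.41 ± 0.40) and Pknox1 (-0.27 ± 0.26). Of 26 regional factors of stomach and gut, 17 were tested and 0 passed (0 unadjusted), from -0.21 to 0.34. Among them were Klf4 (0.34 ± 0.41), Sox9 (0.10 ± 0.31), Gata4 (-0.02 ± 0.16) and Foxa1 (-0.05 ± 0.29).

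Of 15 endocrine lineage factors, 7 were tested and 0 passed (0 unadjusted), with a median of 0.11. These included Ptf1a (0.31 ± 0.74), Isl1 (-0.23 ± 0.37) and Insm1 (0.14 ± 0.65). None of the 15 Hox genes listed, of 23, was abundant enough to test. The lists were drawn up with earlier results of these plates in view.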

How the data were processed

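The 8 members, the gene lists and the tests were chosen with earlier results of these data known. The 7 deposited tables hold whole-number values, raw UMI counts per feature and well, which the authors made from CEL-seq2 reads; the build was mm9 per the submitters' processing notes, and information on the aligner, the counting program and its use of strand was not given in the sources used here. Each table numbers its 384 wells, so no cell barcode could be compared between plates. Spike-in rows were left out, and wells with at least 1000 UMIs were kept.

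Cells were clustered with scanpy 1.11.5 (Leiden, 2000 variable genes, 30 components, resolution 1) without the members, and 2170 of 2235 cells kept their class when the members were included. A cluster was named where at least 3 detected markers of a class had a mean log2 fold of at least 0.5 over the other cells. No doublet caller was run, since each well was sorted to hold 1 cell. Counts were summed per plate, and per plate and class with at least 10 cells, and CPM is UMIs per 1000000 UMIs of the summed cells.

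The planned count model was replaced, because the unit check could not address the numbered columns. Sums were fitted with limma 3.58.1 in R 4.3.3 on log2(TMM-scaled CPM + 2) with a mean trend, over features with 15 UMIs in all and, in each of a number of plates equal to the smaller label, a CPM worth 10 UMIs at median depth. Adjustment was Benjamini-Hochberg at 0.05. This step was tested on simulated data. The closing section gives the effect of other pseudocounts, scalings, filters, weights, a replicate block, thinning and left-out plates. The named genes were all members, the 4 most abundant tested genes of each list (2 of these are not reported here), and the 3 genes nearest to each member by Pearson r. Poisson and binomial intervals are exact, at 95%, and with the floor of 3 counts cover counting error only. The labels name no animal, so p-values measure the spread between plates.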

Additional observations from a re-analysis of the deposited data

Results flagged for a closer look

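In each of 11 of 30 groups of 4 corpus plates, the library labelled corpus replicate 1 stood so far above the other 3 that the gap took up most of the range. Chance alone would mark about 1 group in 20, but these groups share the same 4 plates and cells and the members were chosen with their levels known, so the count is not read against that rate. Over all cells, Pitx1 stood at 42.7 CPM there against 3.40 to 5.58 in the other corpus plates, Nkx6-3 at 70.9 against 0.510 to 9.39, and Pdx1 at 2.23 against 0 to 0.316.

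Within classes, Pitx1 was at 24.4 CPM in neck-like cells (2.75 to 6.41 elsewhere) and at 39.3 in pit-like cells (4.10 to 8.20). Nkx6-2 was at 85.3 CPM in neck-like cells (18.6 to 24.1) and at 36.3 in pit-like cells (12.3 to 13.4). Nkx6-3 was at 99.2 CPM in neck-like cells (0 to 10.7) and at 62.8 in pit-like cells (1.37 to 7.25). Of the 82 neck-like cells of corpus replicate 1, 30 lay in a cluster without cells of the other corpus plates. The part of that cluster in the neck-like values was not tested. Meis2 was at 385 CPM in endocrine-like cells (33.0 to 64.8), and Pdx1 at 4.91 in pit-like cells (0 to 0.703), on 5 UMIs.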

How the results depend on the processing

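The direction of every tested member over all cells held in all 96 alternative values, from 0.79 to 1.91 for Irx2, 1.29 to 2.18 for Irx3, 1.56 to 2.78 for Irx5, 1.77 to 2.93 for Pitx1, -2.13 to -1.62 for Meis2, -1.70 to -0.66 for Nkx6-2 and -4.15 to -2.20 for Nkx6-3. After thinning only 1 member was abundant enough to test, so that setting does not cover the others. The members were selected on this direction and the settings share plates, so the agreement is a description. All 7 tested members passed only among the 4 plates corpus replicates 3 and 4 and pylorus replicates 2 and 3. Within classes, 312 of 334 values kept direction and call, 19 gained a call, 2 lost it, and Irx2 in endocrine-like cells turned to -0.0020 (from 1.59) in those 4 plates. Over all cells, 2 features passed. With a pseudocount of 0.5, thinning, or wells of at least 3000 UMIs 1 passed, with no filter or voom weights 0, with the 4 plates 423, and leaving out each plate 0 to 2 (2 without pylorus replicate 2, 0 without any other). With the 4 plates, 48 passed in chief-like, 19 in endocrine-like, 60 in neck-like, 174 in pit-like and 9 in proliferating-like cells. With no filter, 3 passed in chief-like and 1 in proliferating-like cells; voom weights gave 1 in pit-like cells. Thinning gave 0 in neck-like and 24 (from 555) in parietal-like cells, where fewer features were tested. Leaving out each plate gave 0 to 3 in chief-like and neck-like cells, 0 to 2 in pit-like, 0 to 1 in proliferating-like and 181 to 1328 in parietal-like cells, the low values without a corpus and the high ones without a pylorus plate. The cause of the other moves was not tested.

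With the replicate block, 1 feature passed over all cells, 16 in neck-like, 2 in pit-like and 8 in proliferating-like cells, and Irx5 (2.77), Meis2 (-2.29) and Nkx6-2 (-2.90) passed in neck-like cells. The plates share only a number: same-numbered pairs correlated at 0.45, -0.11 and 0.47, and corpus replicate 2 did not correlate best with its own number. The block could not be fitted in parietal-like cells. In depth, 0 UMIs of a member in the shallow corpus replicate 1 allow 1.11 CPM.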
